A study of Homo sapiens with 13 samples.

Results

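Expression was compared between T-cell acute lymphoblastic leukemia (T-ALL) lines with a known activation of the transcription factor TAL1, which were CCRF-CEM, Jurkat and Molt4 (3 arrays), and lines with a rearranged TLX homeobox gene, which were ALL-SIL with TLX1 and HPB-ALL with TLX3 (2 arrays). The lines were grouped by their known lesions within the label T-ALL, although this comparison was taken up with earlier results of these data known. The 5 arrays were part of 13 in the series, 7 from T-ALL and 6 from B-cell precursor ALL (BCP-ALL). P12-ICHIKAWA and TALL-1, which are T-ALL lines too, are given as a reference only. All were human cell lines without treatment, grown for 30 h in the same medium, and each was hybridised once to an Affymetrix HG-U133 Plus 2.0 array. Each of the 5 lines compared comes from the leukemia of 1 patient and differs from the others in many lesions besides the one that named its group. ALL-SIL and HPB-ALL carry different TLX genes, and CCRF-CEM is known to carry an NKX2-5 rearrangement as well. Per the methods of the study, 1 laboratory provided ALL-SIL, HPB-ALL and both reference lines, and another provided CCRF-CEM, Jurkat and Molt4, so that the source of the lines and their lesion cannot be told apart among the 5 lines.

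TAL1 is a basic helix-loop-helix factor that is silenced in normal T-cell development. When it is switched on in a T-cell precursor it pairs with E proteins such as TCF3 and TCF12, binds E-box sequences together with GATA3, LMO2 and MYB, and activates a set of genes. TLX1 and TLX3 are homeodomain proteins of the NKL family that T cells do not normally use, and leukemias that carry them are arrested at the cortical stage of the thymus, when precursors express CD1 and rearrange their receptor genes. Both lesions are common in T-ALL and seldom occur together.

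Values are on a log2 scale to which 16 was added before the log, so that 4 is the floor and differences between low values are understated. A gene was represented by its probe set with the highest mean over the 13 arrays, which gave 18568 genes, and 11587 of them lay above the median of the array in at least 2 of the 5 lines and were tested with limma. The array medians of the 5 lines lay between 5.15 and 5.32. The median difference (TAL1-lesion minus TLX-lesion) over all genes was 0.04 on the log2 scale and became -0.07 when arrays were centred on their medians, so a difference of that order has no fixed sign. The T-lineage label held in all 5 lines: CD3D lay between 11.56 and 12.25, CD3E between 9.82 and 10.29, and LCK, the kinase of the T-cell receptor, between 10.33 and 12.11 on the log2 scale. CD2, another T-cell surface protein, was near the floor in CCRF-CEM (4.57) and Molt4 (4.51), 5.62 in ALL-SIL, and 9.23 in Jurkat and 10.07 in HPB-ALL.

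The genes of the lesions were seen in the lines that carry them, though for TAL1 this depended on the probe set. The probe set of TAL1 that the selection took was dim, with 5.53 in CCRF-CEM, 5.71 in Jurkat and 5.51 in Molt4 against 4.88 in ALL-SIL and 4.95 in HPB-ALL. The groups did not overlap, but the difference of 0.67 ± 0.17 (SE) on the log2 scale had a limma adjusted p of 0.244. Another of the 4 probe sets of TAL1 read 7.80 in CCRF-CEM, 9.91 in Jurkat and 9.23 in Molt4, and 4.08 in ALL-SIL and 4.15 in HPB-ALL. By that probe set TAL1 was high in every line known to activate it and near the floor in both TLX-lesion lines, and it was also near the floor in P12-ICHIKAWA (4.24) and TALL-1 (4.06). When each gene was represented by its most variable probe set, TAL1 differed by 4.87 ± 0.65 (SE) with a limma adjusted p of 0.0696. TLX1 was 9.22 in ALL-SIL and at most 4.90 in the other 4 lines. TLX3 was 10.25 in HPB-ALL and at most 4.77 in the other 4. Since each TLX gene was high in a single line, neither passed the filter, and their values are given as a description.

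Among the other T-ALL oncogenes, high values fell on 1 or 2 lines rather than on a whole group. CCRF-CEM had NKX2-5, a homeobox gene of heart development, at 16.69, while the other 4 lines lay between 5.30 and 5.92. The same line had the highest MEF2C (8.57, others at most 4.32), a MADS-box factor of early progenitors. It also had the highest MYCN (10.57), which was 7.38 in Jurkat and at most 4.97 in Molt4, ALL-SIL and HPB-ALL. LMO2, the bridging protein of the TAL1 complex, was 8.0 in CCRF-CEM and 6.55 in Molt4, and 4.18 in Jurkat, 4.22 in ALL-SIL and 4.52 in HPB-ALL. LYL1, a close relative of TAL1, was 7.77 in CCRF-CEM and 6.22 and 6.24 in the TLX-lesion lines, with 5.44 in Jurkat and 4.79 in Molt4. MYC was even, between 10.67 and 11.32 in the 5 lines. TLX2 lay between 4.78 and 5.64 in the TAL1-lesion lines and at 4.44 and 4.38 in the TLX-lesion lines, and its difference of 0.85 had a limma adjusted p of 0.32. NKX2-2 and LMO3 did not overlap between the groups either, at differences of 0.48 and 0.40, but stayed low in all 5 lines. LMO1 lay between 4.77 and 5.17, and TAL2, NKX2-1, OLIG2 and SPI1 were below 5 in all 5 lines. None of the 17 measured genes of this list passed the limma test, 2 had an unadjusted p under 0.05, and 5 of them did not overlap between the groups with higher values in TAL1-lesion lines and 1 with higher values in TLX-lesion lines, against 19.3% and 13.9% of all genes measured.

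**Figure D1:**
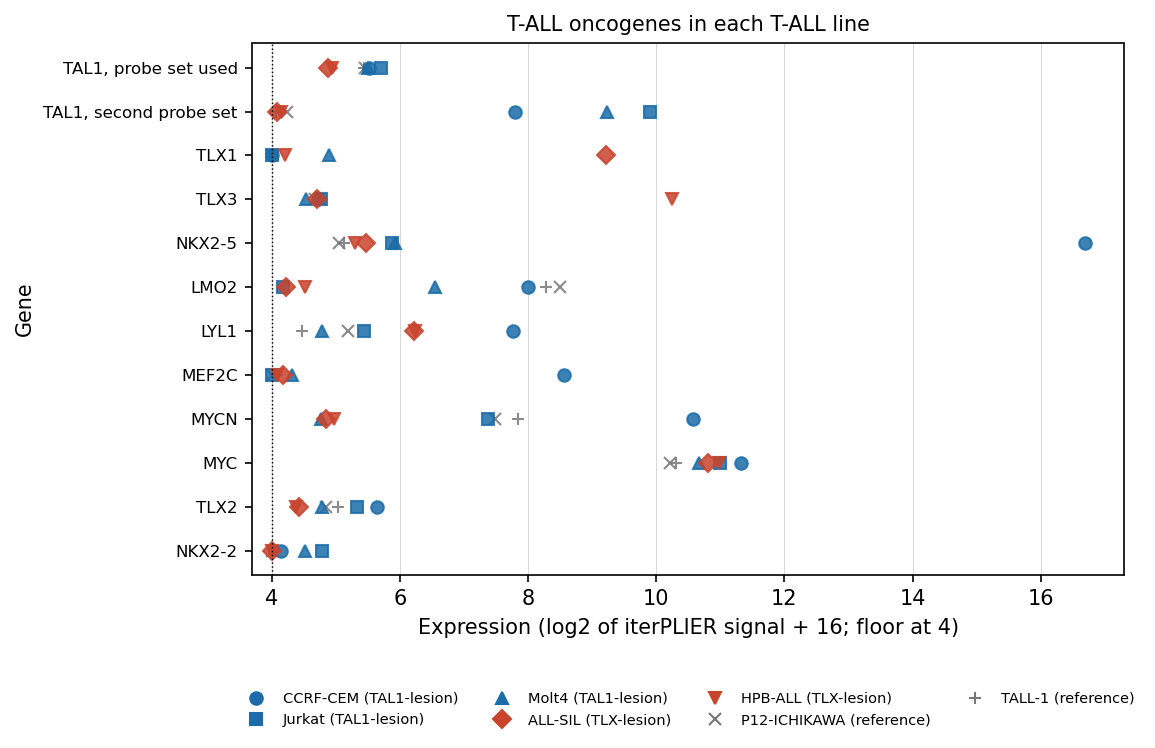
Expression of T-ALL oncogenes in each line, with genes on the vertical axis and log2 expression on the horizontal axis. Blue symbols are TAL1-lesion lines, red symbols TLX-lesion lines and gray crosses the reference lines, and the dotted line is the floor at 4. The second probe set of TAL1 separates the groups (7.80 to 9.91 against 4.08 and 4.15), while TLX1, TLX3, NKX2-5 and MEF2C each stand out in 1 line.

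Across the genome, 52 of the 11587 genes tested (0.449%) passed a limma adjusted p of 0.05. Of these, 39 (0.337%) were higher in TAL1-lesion lines, by 1.74 to 6.99 log2 units with a median of 3.14, and 13 (0.112%) were higher in TLX-lesion lines, with differences from -6.58 to -1.61. The smallest adjusted p was 0.0134, and 1554 genes (13.4%) had an unadjusted p under 0.05. The 3 and 2 values of the groups did not overlap for any of the 52, and over all 18568 genes they did not overlap for 3589 (19.3%) with higher values in TAL1-lesion lines and 2584 (13.9%) with higher values in TLX-lesion lines. A gap of at least 1 log2 unit between the groups was found for 180 genes (0.969%) higher in TAL1-lesion lines and 77 (0.415%) higher in TLX-lesion lines. An exact permutation test of 3 against 2 lines cannot give a two-sided p below 0.2, so the calls rest on the spread that limma shares across genes, and no single line can be removed without losing most of them: 1 of the 52 was called again without CCRF-CEM, 0 without Jurkat, 1 without Molt4, 4 without ALL-SIL and 13 without HPB-ALL. In 34 of the 39 genes higher in TAL1-lesion lines, both TLX-lesion lines were within 1 log2 unit of the floor, where values vary little. In 7 of the 13 others all TAL1-lesion lines were. These genes passed the filter through the group with high values alone. With no filter, 24 genes higher in TAL1-lesion lines and 10 higher in TLX-lesion lines were called. A bulk array cannot tell fewer expressing cells from less RNA per cell.

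**Figure D2:**
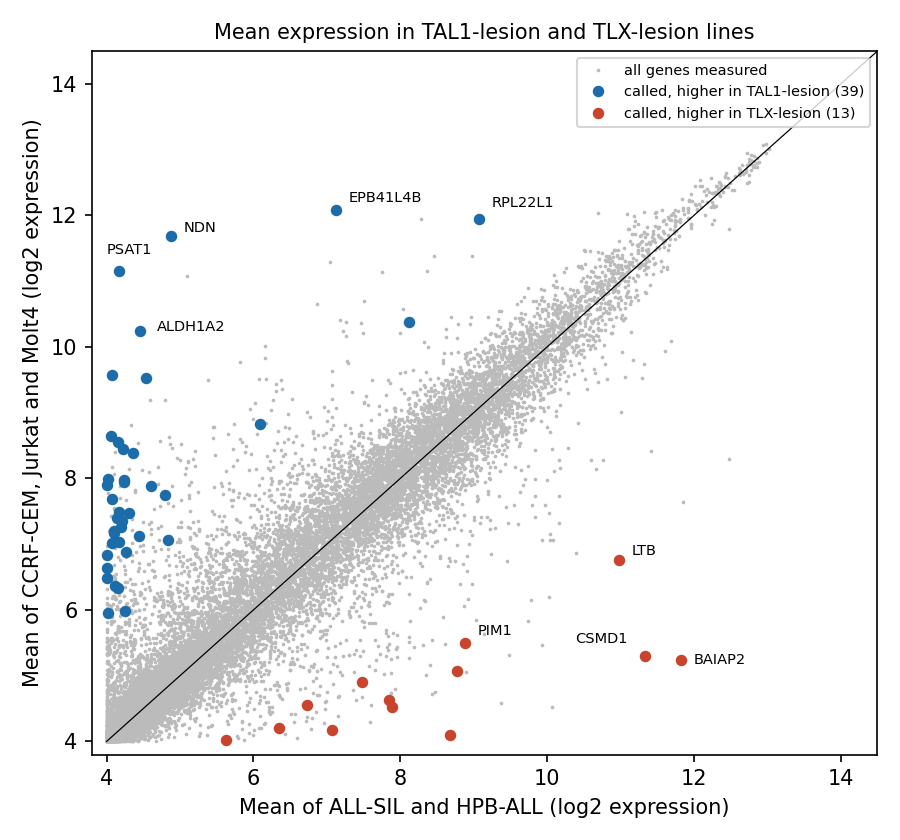
Mean log2 expression of each gene in the TLX-lesion lines (horizontal axis) and the TAL1-lesion lines (vertical axis). Gray dots are the genes measured, blue dots the 39 genes called as higher in TAL1-lesion lines and red dots the 13 called as higher in TLX-lesion lines, and most blue dots lie at the floor of the horizontal axis.

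The largest differences in favor of the TAL1-lesion lines were those of PSAT1 and NDN. PSAT1, the aminotransferase of the serine synthesis pathway, was 12.01 in CCRF-CEM, 11.19 in Jurkat and 10.28 in Molt4, and 4.02 in ALL-SIL and 4.32 in HPB-ALL. It was therefore strongly expressed in every TAL1-lesion line and at the floor in both TLX-lesion lines, a difference of 6.99 ± 0.53 (SE) with a limma adjusted p of 0.0242. Its second probe set gave 5.76. The enzymes before and after it in serine synthesis, looked up after these values were seen, did not share the pattern: PHGDH differed by 0.03 and PSPH by 0.26, and the groups overlapped for both. NDN, the imprinted gene of necdin that restrains cell growth in neurons, was 11.86 in CCRF-CEM, 11.91 in Jurkat and 11.27 in Molt4 against 4.89 in ALL-SIL and 4.86 in HPB-ALL. Its difference of 6.81 ± 0.26 (SE) had the smallest limma adjusted p of all genes, 0.0134.

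ALDH1A2, which makes retinoic acid and is a known target of the TAL1 complex in T-ALL, came next. It was 10.57 in CCRF-CEM, 10.47 in Jurkat and 9.69 in Molt4, and 4.23 in ALL-SIL and 4.68 in HPB-ALL. All TAL1-lesion lines were more than 5 log2 units above both TLX-lesion lines, and the difference was 5.78 ± 0.36 (SE, limma adjusted p = 0.0208). It was 9.84 in P12-ICHIKAWA and 10.34 in TALL-1 as well, where the brighter probe set of TAL1 was near the floor. ALDH1A2 was the 1 called gene of 11 measured TAL1 targets, against 0.337% of all genes tested called in that direction. Of the 11, 7 had a higher mean in TAL1-lesion lines and 4 in TLX-lesion lines, against 10392 and 8175 of all 18568 genes. The median difference of this list was 0.71 against 0.04 over all genes, and it ranged from 0.04 to 0.78 with the probe set, the scaling or the line left out. RAB40B, a small GTPase, did not overlap but was not called (2.08, limma adjusted p = 0.271), and MYB, a partner as well as a target, was 0.52 higher (adjusted p = 0.382). CDK6 and ARID5B overlapped between the groups. The partners of TAL1 had no call by limma either, with 2 of 18 at an unadjusted p under 0.05 and a list median of -0.05. ID2, which blocks E proteins, was 9.47 in ALL-SIL and 6.13 in HPB-ALL and between 4.93 and 5.82 in the TAL1-lesion lines (limma adjusted p = 0.38). TCF3 and TCF12 overlapped between the groups. EPHB1, an ephrin receptor of the target list, ran the other way, with 10.29 in ALL-SIL and 8.45 in HPB-ALL and 4.43 to 4.85 in the TAL1-lesion lines, and missed the threshold at a limma adjusted p of 0.0653. It was called by limma with all 7 T-ALL lines in the fit (adjusted p = 0.0143) and with all 13 lines (7.54e-05). Both fits count the nearly alike reference arrays (r = 0.993) as separate lines, which tends to lower the estimate of the spread. Without HPB-ALL the difference of EPHB1 was -5.71.

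The next genes in order were PNMA2 (5.50), a neuronal antigen, FSD1 (4.99), a protein of microtubules and centrosomes, and EPB41L4B (4.95), a FERM-domain protein. BNIP3, a mitochondrial protein that hypoxia induces and that acts in mitophagy, was between 8.35 and 9.17 in the TAL1-lesion lines and at 4.0 in ALL-SIL and 4.13 in HPB-ALL. VASH2, which removes the terminal tyrosine of tubulin, differed by 4.40, MYADM, a membrane protein of myeloid differentiation, by 4.24, and PTPRK, a receptor tyrosine phosphatase, by 4.03. Their limma adjusted p lay between 0.0203 and 0.0419 over these 7 genes. The 4.95 of EPB41L4B came from 1 of its 6 probe sets, and the others differed by -0.02, 0.12, 0.34, 0.58 and 2.14. Both probe sets of PNMA2, BNIP3, MYADM and PTPRK agreed in direction. The second probe set gave only 1.82 for PNMA2 and 0.47 for PTPRK, and the other probe sets of VASH2 gave 0.13 and 2.88.

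Other enzymes among the 39 genes, picked after their values were seen, included CBS, which condenses homocysteine with serine, PYCR1, the last enzyme of proline synthesis, and ACAA2, a thiolase of mitochondrial beta-oxidation. CBS was 7.70 in CCRF-CEM, 7.74 in Jurkat and 8.40 in Molt4 and 4.21 and 4.27 in the TLX-lesion lines (difference 3.71 ± 0.30, SE, limma adjusted p = 0.0243). PYCR1 was 7.98, 8.09 and 7.57 in the same order against 4.36 and 4.85 (adjusted p = 0.0298), and ACAA2 was 8.50, 7.93 and 7.54 against 4.05 and 4.0 (adjusted p = 0.0267). Transcription and chromatin genes called in the same direction were SCML2, a Polycomb protein, BATF3, POU3F2, ONECUT2, HOXB7, MTA2 and BEND4. TNFRSF10B, the death receptor of TRAIL, was 7.37 in CCRF-CEM, 7.51 in Jurkat and 6.65 in Molt4 and near the floor in ALL-SIL (4.16) and HPB-ALL (4.05), with a limma adjusted p of 0.0419. RPL22L1, a paralog of a ribosomal protein, was one of few called genes that were well expressed on both sides, at 11.43 to 12.30 against 9.16 and 8.98 (adjusted p = 0.0419).

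**Figure D3:**
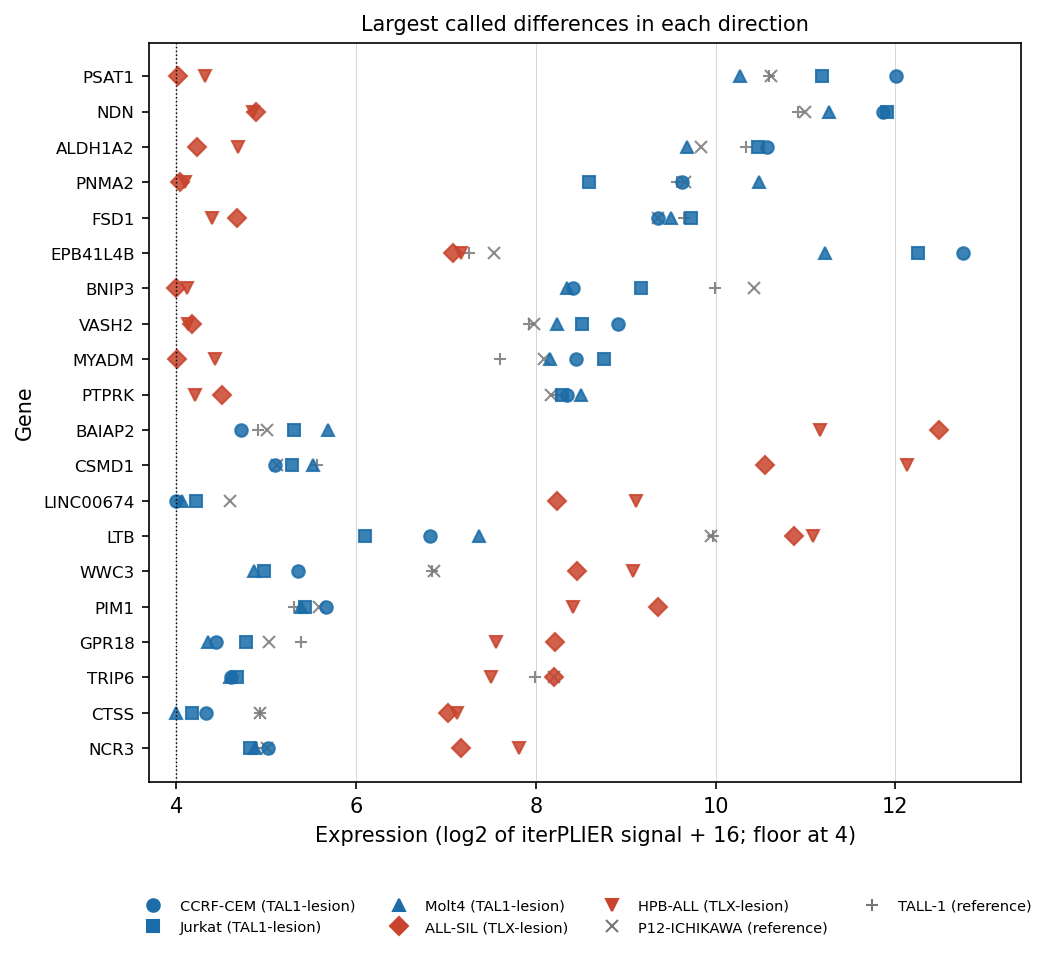
The 10 largest called differences in each direction, with log2 expression in every T-ALL line. Genes from PSAT1 to PTPRK are higher in TAL1-lesion lines (blue) and genes from BAIAP2 to NCR3 in TLX-lesion lines (red). The gray reference lines lie with the blue symbols for most of these genes. EPB41L4B, LTB and TRIP6 are exceptions, and for WWC3 they lie between the groups.

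In the other direction, the largest differences were those of BAIAP2 and CSMD1. BAIAP2, a scaffold protein of the actin cytoskeleton, was 12.48 in ALL-SIL and 11.16 in HPB-ALL, and 4.72 in CCRF-CEM, 5.31 in Jurkat and 5.69 in Molt4. The difference was -6.58 ± 0.51 (SE, limma adjusted p = 0.0242), and its 3 other probe sets had the same direction with a smaller difference, down to -0.24. CSMD1, a membrane protein that inhibits complement, was 10.55 in ALL-SIL and 12.13 in HPB-ALL and between 5.10 and 5.52 in the TAL1-lesion lines (adjusted p = 0.0257). By the probe sets used, both genes were at 5.69 or lower in the TAL1-lesion lines and above 10 in both TLX-lesion lines. Another of the 5 probe sets of CSMD1 gave -5.26, and the other 3 were at 4.84 or lower in ALL-SIL. Of these 3, 2 differed by only -0.19 and -0.21, and 1 was high in HPB-ALL alone (7.13). LINC00674, a long noncoding RNA, was 8.23 and 9.12 in ALL-SIL and HPB-ALL and at most 4.22 in the other 3 lines (adjusted p = 0.0225).

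LTB, the membrane-bound partner of lymphotoxin alpha, was 10.87 in ALL-SIL and 11.09 in HPB-ALL, and 6.82 in CCRF-CEM, 6.10 in Jurkat and 7.37 in Molt4 (limma adjusted p = 0.0359). NCR3, a receptor of natural killer cells encoded 2 measured genes away from LTB on chromosome 6, was 7.16 and 7.81 against 4.82 to 5.02 (adjusted p = 0.0419). Its other probe sets gave -0.93 and -1.11. In the latter, ALL-SIL (5.07) lay within the range of the TAL1-lesion lines (4.79 to 5.09). The second probe set of LTB gave -0.40. PIM1, a serine/threonine kinase induced by STAT5, was 9.36 in ALL-SIL and 8.41 in HPB-ALL and between 5.39 and 5.67 in the TAL1-lesion lines, with a difference of -3.39 ± 0.35 (SE, adjusted p = 0.0419). GPR18, a lipid receptor of lymphocytes, was 8.21 and 7.56 against at most 4.77, and CTSS, the cysteine protease cathepsin S, was 7.02 and 7.12 against at most 4.33. WWC3, a regulator of Hippo signaling, TRIP6, a zyxin family adaptor, CLIP2, a microtubule linker, and ZNF404, a zinc finger protein, were called as well, at differences of -3.70, -3.22, -2.14 and -1.61.

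IGHM, the heavy chain of IgM, was the only called gene of the 6 tested in the B-cell precursor list. In that direction 0.112% of all genes tested were called. The probe sets of IGHM disagreed. The one used was 6.91 in ALL-SIL and 6.56 in HPB-ALL and between 4.32 and 4.73 in the TAL1-lesion lines, against 10.19 to 11.86 in the 6 BCP-ALL lines. Only 2 of its 5 probe sets had this direction, and the others differed by 0.24 to 1.73 the opposite way. The defining B-cell factors PAX5 and EBF1 were at most 4.59 and 5.00 in the 5 lines, and BLNK, CD22 and MS4A1 were below 5. Other B-cell genes were not low in every line. CD79A was 7.05 in CCRF-CEM, 8.05 in Jurkat, 5.21 in Molt4, 7.46 in ALL-SIL and 6.47 in HPB-ALL. POU2AF1 reached 8.06 in ALL-SIL and 7.18 in Jurkat, CD79B 7.36 in ALL-SIL and CD72 7.46 in HPB-ALL. Of the 15 measured B-cell genes, 2 did not overlap with higher values in TAL1-lesion lines and 1 with higher values in TLX-lesion lines, against 19.3% and 13.9% of all genes. The signal summed over the list, on a linear scale above the floor, ran from 168.6 to 1996 in the TAL1-lesion lines and from 1103 to 1439 in the TLX-lesion lines. The myeloid sums were 211.2 to 372.6 and 269.7 to 280.2, the natural killer and cytotoxic sums 197 to 854.1 and 546.2 to 2847, and the erythroid and megakaryocyte sums 246.3 to 282.1 and 261.3 to 274.5 in the same order. Single genes made up a large part of some sums, so these do not describe a whole list. In the B-cell list IGLL1 was 10.68 in CCRF-CEM, 10.04 in Jurkat, 6.27 in Molt4, 9.51 in ALL-SIL and 9.46 in HPB-ALL (log2). In the natural killer list NKG7 was 11.19 in ALL-SIL. The sums of the groups overlapped for all 4 lists, and apart from IGHM no gene of them was called by limma. Of the other 3 lists, 1 myeloid gene, CEBPA (limma adjusted p = 0.347), had an unadjusted p under 0.05, and 0 genes of the natural killer and erythroid lists had. The part of other cells in the called genes was not tested.

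To set the regulatory context beside the called genes, promoters of 4 of them are printed, from 250 bases before to 50 bases after the transcript start, as given by RefSeq for GRCh38.p14. NDN and ALDH1A2 were among the 3 largest differences of the TAL1-lesion side, and BAIAP2 and PIM1 stand for the TLX-lesion side. ALDH1A2 lies at chr15:58065662-58065961 (minus strand), NDN at chr15:23687256-23687555 (minus strand), BAIAP2 at chr17:81034901-81035200 (plus strand) and PIM1 at chr6:37169902-37170201 (plus strand). Capitals mark matches to the E-box CAGNTG, the GATA motif GATAA and the homeodomain motif TAATTG on either strand, which do not overlap each other in these 4 sequences.
ALDH1A2: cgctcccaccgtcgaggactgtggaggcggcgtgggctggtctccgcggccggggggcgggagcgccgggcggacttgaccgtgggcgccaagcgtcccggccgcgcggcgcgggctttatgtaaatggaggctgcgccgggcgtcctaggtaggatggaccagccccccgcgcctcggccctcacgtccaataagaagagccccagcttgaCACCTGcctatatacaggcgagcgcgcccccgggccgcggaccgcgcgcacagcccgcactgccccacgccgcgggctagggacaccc
NDN: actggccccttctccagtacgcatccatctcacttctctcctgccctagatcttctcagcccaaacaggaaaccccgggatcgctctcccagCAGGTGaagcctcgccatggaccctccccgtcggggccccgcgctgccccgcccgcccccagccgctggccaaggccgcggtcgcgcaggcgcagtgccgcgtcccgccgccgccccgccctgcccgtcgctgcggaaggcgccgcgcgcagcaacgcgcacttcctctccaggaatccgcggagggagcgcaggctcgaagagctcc
BAIAP2: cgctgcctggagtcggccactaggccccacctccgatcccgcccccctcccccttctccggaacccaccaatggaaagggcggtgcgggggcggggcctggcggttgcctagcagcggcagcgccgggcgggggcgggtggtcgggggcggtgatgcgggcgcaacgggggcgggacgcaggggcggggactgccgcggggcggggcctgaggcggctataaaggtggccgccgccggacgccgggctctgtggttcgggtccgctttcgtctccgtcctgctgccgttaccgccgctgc
PIM1: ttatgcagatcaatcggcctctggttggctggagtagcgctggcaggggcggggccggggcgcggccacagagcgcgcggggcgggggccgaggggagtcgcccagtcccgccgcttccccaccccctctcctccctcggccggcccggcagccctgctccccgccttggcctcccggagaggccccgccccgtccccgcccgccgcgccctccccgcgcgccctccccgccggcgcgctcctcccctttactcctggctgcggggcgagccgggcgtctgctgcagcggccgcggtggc
ALDH1A2 and NDN each held 1 E-box and no match to the other motifs, and BAIAP2 and PIM1 held none of the 3. Of the 39 genes higher in TAL1-lesion lines, 26 had a promoter in the table, and an E-box was found in 11 of these (42.3%), against 5 of 9 (55.6%) of the genes higher in TLX-lesion lines and 46.8% of 14554 promoters of measured genes. GATAA was found in 2 of 26 and 1 of 9, against 17.4% of all, and TAATTG in 3 of 26 and 1 of 9, against 5.36% of all. These are matches of letters in windows at the annotated starts, and where transcription starts in these lines was not measured.

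Of the HOXB genes, which pattern the body axis and act in blood progenitors, 1 was called. HOXB7 was higher in TAL1-lesion lines (3.14 ± 0.25, SE, limma adjusted p = 0.0242), at 7.34 in CCRF-CEM, 7.64 in Jurkat and 7.09 in Molt4 and 4.26 and 4.16 in ALL-SIL and HPB-ALL, and its 3 probe sets agreed in direction. In the same cluster on chromosome 17, HOXB3 and HOXB4 were separated in the same direction but were not called, while the genes between HOXB4 and HOXB7 were not separated: HOXB3 was 8.66, 10.96 and 7.97 against 4.87 and 4.73 (adjusted p = 0.197), and HOXB4 was 6.54, 6.82 and 6.25 against 4.86 and 4.84 (adjusted p = 0.103). By the probe set used, HOXB2, HOXB5, HOXB6, HOXB8 and HOXB9 lay at 5.56 or lower in all 5 lines. A second probe set of HOXB3 was at most 4.74 in all of them. MEIS1, a cofactor of HOX proteins, was high in Molt4 (9.69) and CCRF-CEM (7.62) and near the floor in Jurkat (4.36), ALL-SIL (4.39) and HPB-ALL (4.31). Of 15 measured genes of the HOX, MEIS and PBX list, 9 were tested and 1 was called. In that direction 0.337% of all genes tested were called. Of the 15, 3 were separated by 1 log2 unit or more. All 3 were higher in TAL1-lesion lines, against 0.969% of all genes separated in that direction. The list median was 0.26 against 0.04 over all genes. Of the 29 NKL homeobox genes measured 0 were called by limma, 2 had an unadjusted p under 0.05, and HMX2 alone was separated, at 5.34 to 6.70 against 4.31 and 4.10 (adjusted p = 0.232).

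Genes of progenitors and of cortical thymocytes did not order the groups as a whole. BCL11A, a zinc finger factor of lymphoid progenitors, was 9.28 in CCRF-CEM, 8.69 in Jurkat and 7.65 in Molt4, and 4.37 in ALL-SIL and 4.48 in HPB-ALL. All 4 of its probe sets separated the groups by more than 1 log2 unit, and its limma adjusted p was 0.073. ARPP21, a gene of the cortical thymocyte, was 8.80, 7.87 and 8.72 against 4.0 and 5.78 (adjusted p = 0.139). No other gene of the 17 measured in the progenitor list was separated. The CD1 genes split each group: CD1A was 9.69 in Jurkat and 10.32 in Molt4 but 4.86 in CCRF-CEM, and 11.02 in HPB-ALL but 5.86 in ALL-SIL. CD8A, the coreceptor chain, was 9.16 in ALL-SIL and 10.41 in HPB-ALL, 8.22 in Molt4, 5.69 in CCRF-CEM and 4.53 in Jurkat (adjusted p = 0.31). The recombinase genes RAG1 and RAG2 were higher in every TAL1-lesion line than in either TLX-lesion line, by a gap of 0.55 and 0.73, with adjusted p of 0.384 and 0.345. None of the 14 measured genes of the cortical list was called by limma, 4 had an unadjusted p under 0.05, and the list median of 0.08 ranged from -1.29 to 2.05 when 1 line was left out or the probe sets or scaling were changed.

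Of 26 measured T-lineage transcription factors, 18 had a higher mean in TLX-lesion lines, as had 8175 of all 18568 genes, and 0 were called. RUNX3, a Runt factor of CD8 T cells, was 10.11 in ALL-SIL and 10.67 in HPB-ALL, and 7.67 in CCRF-CEM, 6.99 in Jurkat and 5.96 in Molt4 (limma adjusted p = 0.115). IKZF3, the Ikaros family factor Aiolos, was 8.0 and 10.27 against 5.30 to 5.95 (adjusted p = 0.186), and GATA3, the master factor of T-cell commitment, was 11.42 and 10.69 against 9.11 to 10.13 (adjusted p = 0.25). On the surface, CD7 was 11.01 in ALL-SIL and 10.18 in HPB-ALL and between 8.0 and 8.82 in the TAL1-lesion lines (adjusted p = 0.137). CD5 was 8.61 and 8.44 against 7.11 to 7.47 (adjusted p = 0.158), with CD6 and CD247 in the same direction at adjusted p of 0.31 and 0.393. Among the transcription factors 4 genes had an unadjusted limma p under 0.05, 5 did not overlap with higher values in TLX-lesion lines and 1 with higher values in TAL1-lesion lines, against 13.9% and 19.3% of all genes, and the list median was -0.19. Of 24 CD3 and T-cell receptor genes 0 were called by limma and 3 had an unadjusted p under 0.05, with a list median of 0.10.

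Of 22 measured genes of IL7R and JAK-STAT signaling 21 were tested, and PIM1 was the 1 called. In that direction 0.112% of all genes tested were called. SOCS1, a feedback inhibitor of the JAK kinases, was 9.82 in ALL-SIL and 7.0 in HPB-ALL and between 4.92 and 5.45 in the TAL1-lesion lines (limma adjusted p = 0.25). IL4R was 7.03 and 7.84 against 5.58 to 6.35 (adjusted p = 0.242), and JAK1 was 8.91 and 9.59 against 7.92 to 8.66 (adjusted p = 0.392). In 16 of the 22 genes the mean was higher in TLX-lesion lines, against 8175 of all 18568, 7 did not overlap in that direction and 2 in the other, against 13.9% and 19.3% of all genes, and the list median of -0.55 ranged from -0.66 to -0.33 under the alternatives, against 0.04 over all genes. The lines of the TLX group differed from each other here: IL7R was 9.97 in HPB-ALL and 4.06 in ALL-SIL, whereas CISH, a target of STAT5, was 12.99 in ALL-SIL and 7.09 in HPB-ALL.

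MHC class I genes, which present peptides to CD8 T cells, were not called. HLA-B was 10.93 in ALL-SIL and 11.66 in HPB-ALL and between 9.24 and 9.91 in the TAL1-lesion lines, a difference of -1.77 with a limma adjusted p of 0.152. HLA-C, HLA-F and HLA-G were separated by 1 log2 unit as well, at differences of -1.58, -1.88 and -1.58 and adjusted p of 0.184, 0.187 and 0.184. These genes are nearly identical in parts and vary between people, so their probe sets can read each other's transcripts, and they are not 4 separate readings. TAP1, which loads peptides, was 8.66 and 8.72 against 7.72 to 7.87 (adjusted p = 0.206), while B2M, the shared light chain, overlapped between the groups, with a difference of -0.10. The class II genes HLA-DRA and CD74 were at or near the floor in all 5 lines. Not all class II genes were, since HLA-DRB1 read 7.19 to 7.80 and HLA-DMB 5.67 to 5.96 in the 5 lines. Of 24 measured MHC genes 0 were called by limma, 6 had an unadjusted p under 0.05, 12 did not overlap with higher values in TLX-lesion lines and 2 with higher values in TAL1-lesion lines, against 13.9% and 19.3% of all genes, and the list median was -0.36, with a range of -0.47 to -0.16. With all 7 T-ALL lines in the fit HLA-B was called (limma adjusted p = 0.049). With all 13 lines HLA-B, HLA-C, HLA-F and HLA-G were called (limma adjusted p = 0.00406 for HLA-B and 0.0142 for the others). Both fits count the nearly alike reference arrays as separate lines.

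**Figure D4:**
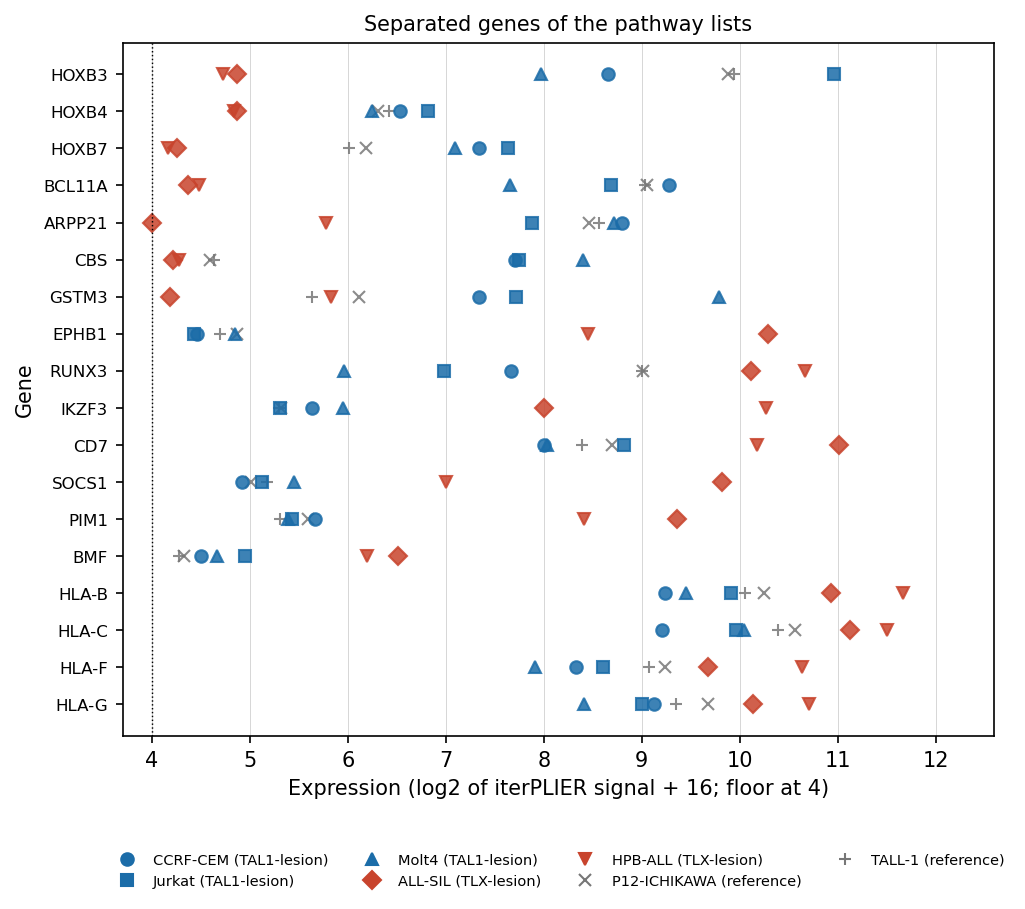
Log2 expression in every T-ALL line of 18 list genes that were separated by at least 1 log2 unit (ALDH1A2, HMX2 and IGHM, also separated, are not drawn). From HOXB3 to GSTM3 the 3 TAL1-lesion lines (blue) lie above both TLX-lesion lines (red), and from EPHB1 to HLA-G below them. HOXB7, CBS and PIM1 were also called by limma.

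The BCL2 family, the 9p21 and G1 genes and the proliferation genes had 0 calls by limma, with 2, 2 and 0 genes at an unadjusted p under 0.05. BMF, a BH3-only protein that triggers apoptosis, was 6.51 in ALL-SIL and 6.19 in HPB-ALL and between 4.50 and 4.95 in the TAL1-lesion lines (limma adjusted p = 0.0963). PMAIP1 (Noxa) was 10.36 and 10.94 against 9.44 to 9.91 (adjusted p = 0.247), and BCL2 was 8.96 in ALL-SIL, 7.61 in HPB-ALL and between 7.15 and 7.44 in the others (adjusted p = 0.422). BCL2L11 (Bim) had the opposite direction, at 0.55 and an adjusted p of 0.379. CDKN1C, a CDK inhibitor, was 5.31 to 5.96 against 4.45 and 4.20 (adjusted p = 0.18), and CDK4 and CDK6 had differences of 0.55 and 0.71 at adjusted p of 0.343 and 0.421. Of the 20 proliferation genes 0 were separated by 1 log2 unit, with TOP2A, CDK1, PCNA and MCM7 between -0.57 and 0.42.

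NOTCH and PI3K genes had 0 calls by limma, with 2 genes of each list at an unadjusted p under 0.05. NOTCH1, which is often mutated in T-ALL, was 9.81 in ALL-SIL and 9.47 in HPB-ALL and between 8.51 and 9.17 in the TAL1-lesion lines (limma adjusted p = 0.389). NOTCH2 was 9.35 and 9.51 against 8.09 to 8.43 (adjusted p = 0.139). The targets were mixed: HES4 was 9.07 to 9.86 in TAL1-lesion lines, 8.37 in HPB-ALL and 4.25 in ALL-SIL, and SKP2 was 10.13 to 10.28 against 9.53 and 9.29 (adjusted p = 0.381 and 0.197). Among adhesion and homing genes, of which 0 of 27 were called and 1 had an unadjusted p under 0.05, S1PR1, the receptor that lets T cells leave lymphoid organs, was 4.71 to 6.64 in TAL1-lesion lines against 4.46 and 4.04 (limma adjusted p = 0.365). Among PI3K genes, AKT2 was 1.11 higher in TAL1-lesion lines (adjusted p = 0.263) and RICTOR 0.91 higher in TLX-lesion lines (adjusted p = 0.308). Of 20 NOTCH genes and 19 PI3K genes measured, 0 were separated by 1 log2 unit.

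Glutathione and folate genes, which the study addressed through methotrexate, had 1 call, CBS. It was the 1 called of 33 glutathione and thioredoxin genes tested, against 0.337% of all genes tested in that direction. GSTM3, a glutathione S-transferase, was 7.34 in CCRF-CEM, 7.72 in Jurkat and 9.78 in Molt4, and 4.18 in ALL-SIL and 5.83 in HPB-ALL (limma adjusted p = 0.271). GPX1 was 9.46 to 10.64 against 9.09 and 7.56 (adjusted p = 0.316), and PRDX1 11.75 to 12.26 against 10.98 and 11.38 (adjusted p = 0.257). Of 36 measured genes 9 did not overlap with higher values in TAL1-lesion lines and 3 with higher values in TLX-lesion lines, against 19.3% and 13.9% of all genes, with a list median of 0.38 that ranged from 0.10 to 0.47. GGH, which removes glutamates from methotrexate, was 8.95 to 9.21 in the TAL1-lesion lines and 8.24 in HPB-ALL, and 4.24 in ALL-SIL (adjusted p = 0.389). Of 21 folate genes 0 were called by limma, 0 had an unadjusted p under 0.05 and 0 were separated.

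The TLX-lesion lines were not alike. ALL-SIL and HPB-ALL differed by at least 2 log2 units for 722 genes (3.89% of those measured), within the range of 660 to 806 of the 6 pairs between the groups, while the 3 pairs of TAL1-lesion lines differed for 320 to 473. The correlation of the arrays over all probe sets was 0.940 to 0.956 within the TAL1-lesion lines, 0.919 between ALL-SIL and HPB-ALL, and 0.914 to 0.916 between the groups. At 4 log2 units or more, 69 genes were higher in ALL-SIL and 106 in HPB-ALL.

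**Figure D5:**
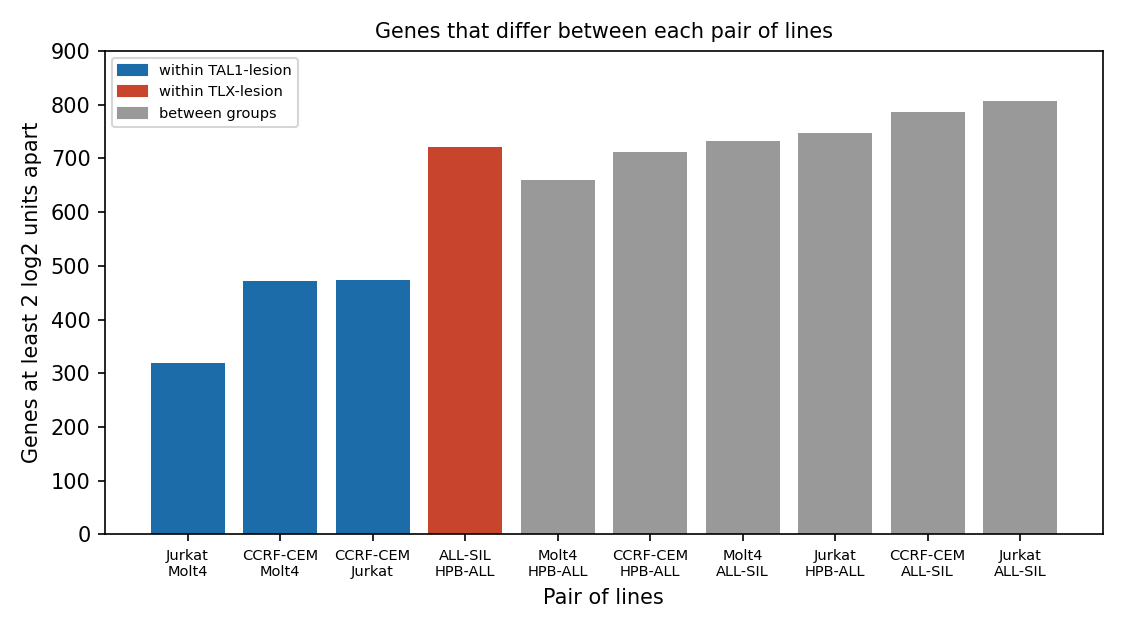
Number of genes that differ by at least 2 log2 units between each pair of the 5 lines (vertical axis, from 0). Pairs of TAL1-lesion lines (blue) differ for 320 to 473 genes, ALL-SIL and HPB-ALL (red) for 722, and pairs between the groups (gray) for 660 to 806.

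The reference lines, in which the brighter probe set of TAL1 was near the floor, lay closer to the TAL1-lesion lines for most called genes but not over all probe sets. Over all probe sets both correlated best with ALL-SIL (r = 0.937 and 0.936), next with the TAL1-lesion lines (0.932 to 0.934) and least with HPB-ALL (0.920 and 0.922). Of the 39 genes higher in TAL1-lesion lines, P12-ICHIKAWA was nearer to the TAL1-lesion mean for 25 and TALL-1 for 26, and of the 13 genes higher in TLX-lesion lines both were nearer to it for 11. NDN was 11.00 in P12-ICHIKAWA and 10.92 in TALL-1, ALDH1A2 was 9.84 and 10.34, and PSAT1 10.62 and 10.60, all within or close to the range of the TAL1-lesion lines. CBS (4.59 and 4.63), BEX5 (4.08 and 4.05) and EPB41L4B (7.54 and 7.26) were instead at the level of ALL-SIL and HPB-ALL. Among genes of the other direction, TRIP6 (8.20 and 8.0) and LTB (9.95 and 9.97) were at or near the TLX-lesion level, whereas BAIAP2, CSMD1, PIM1, GPR18, CTSS and NCR3 were not. The arrays of both reference lines were nearly alike (r = 0.993), so they count as little more than 1 line.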

How the data were processed

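The deposited values are log2 intensities that the authors computed with iterPLIER+16. The labels name Affymetrix Expression Console, with no version, and no source used here states a scaling between arrays. Arrays give no read counts, and their number limits the precision. RNA came from cells kept for 30 h per the labels, and overnight in fresh medium per the methods. Of 42450 probe sets, 38125 had 1 gene symbol in the platform annotation, 1742 several and 2583 none; the latter groups were left out. For each of the 18568 genes, the probe set of highest mean over 13 arrays was used. Genes above their array's median in at least 2 of 5 lines (11587) were tested with limma 3.58.1 in R 4.3.3 (lmFit, eBayes with trend, Benjamini-Hochberg adjusted p at 0.05), 3 against 2 arrays, with no covariate. Other steps used Python 3.11.15 and pandas 2.3.3. The fit was tested on simulated data. With 1 array per line, p-values measure the spread between lines, and no batch or scan date is given in the sources used here. The lines and the 23 gene lists were chosen with earlier results of these data known. Named are all T-ALL oncogenes measured, the 10 largest called differences in each direction, up to 4 genes per list with the smallest p without the filter, and list genes separated by at least 1 log2 unit; other genes were named after their values were seen. Genes of the Y chromosome and XIST were not named. List members without such a probe set were not analysed here. Alternatives covered the scaling, the probe set, the filter, the variance model, the lines in the fit and each line left out.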

Additional observations from a re-analysis of the deposited data

How the results depend on the processing

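All 52 called genes kept their direction under every alternative in which they were tested, but the number of calls moved. Counts are given as higher in TAL1-lesion and higher in TLX-lesion lines, from 39 and 13. The mean of all probe sets gave 24 and 5, and no filter gave 24 and 10. All 7 T-ALL lines in the fit gave 130 and 56, and 13 lines 55 and 27. The fits with 7 and 13 lines count the nearly alike reference arrays (r = 0.993) as separate lines, which tends to lower the estimate of the spread. Quantile normalization (27 and 13), centred arrays (32 and 14), the most variable probe set (45 and 15), a filter over 13 lines (38 and 12) and eBayes without trend (38 and 12) stayed within 1.5 times. Leaving out 1 line gave 0 to 31 and 0 to 15: 4 and 2 without CCRF-CEM, 0 and 0 by limma without Jurkat (where 1015 genes had an unadjusted p under 0.05), 2 and 0 without Molt4 (1233 genes), 7 and 5 without ALL-SIL and 31 and 15 without HPB-ALL. In the last 2 settings the lone TLX-lesion line is assumed to vary like the other group. Of the 52 genes, 39 were called again after quantile normalization, 44 after centring, 27 with the mean of all probe sets, 33 with no filter, 52 with 7 lines and 27 with 13 lines. Among the genes of the lists, BCL11A, EPHB1, HOXB4, RUNX3, BMF, CD7, ARPP21, HLA-B and NOTCH2 were also called with 7 lines in the fit (limma adjusted p from 0.0143 for EPHB1 to 0.049 for HLA-B). With 13 lines BCL11A, CD5, CD7, EPHB1, GSTM3, HLA-B, HLA-C, HLA-F, HLA-G, HOXB3, HOXB4 and RUNX3 were, and CBS and IGHM were not. PIM1 and IGHM lost their calls with no filter, and these and CBS and HOXB7 with the mean of all probe sets. Without HPB-ALL, CISH, EPHB1, GGH, RB1, SOCS1 and TRBC1 were called. Genes separated by 1 log2 unit, 180 and 77, rose to 252 to 577 and 100 to 362 when 1 line was left out: to 304 and 167 without CCRF-CEM, 310 and 100 without Molt4, 572 and 362 without ALL-SIL and 577 and 309 without HPB-ALL, since a gap over fewer lines is easier to meet. With the mean of all probe sets they were 135 and 44. The cause of the other shifts was not tested. No paired analysis was possible because each line was hybridised once and the lines of the groups are not matched. Groups of 3 and 2 arrays allow no check for outlying samples. The median over tested genes was 0.08 as deposited, -0.01 after quantile normalization and -0.03 after centring.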

Other observations

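Metallothioneins, small proteins that bind zinc and copper, were looked at after their values were seen. Of 8 measured genes, 6 were separated by at least 1 log2 unit with higher values in TAL1-lesion lines, against 0.969% of all genes. Of the 6, 5 were neighbors on chromosome 16, and 0 of the 8 passed limma's adjusted p. MT2A was 10.53 in CCRF-CEM, 10.15 in Jurkat and 10.14 in Molt4, and 8.40 in ALL-SIL and 8.85 in HPB-ALL (limma adjusted p = 0.103). MT1X was 9.65, 9.09 and 9.19 against 7.19 and 7.50 (adjusted p = 0.0909). MT1F, MT1G, MT1H and MT1HL1 had differences of 2.71, 1.88, 2.01 and 1.87, while MT1E was not separated (limma adjusted p = 0.325) and MT1M overlapped between the groups. Metallothionein probe sets can read each other's transcripts, so these are not 6 separate readings. Of 25 pairs of separated genes at most 5 measured genes apart, 18 were both higher in TAL1-lesion lines. In 4 pairs both were higher in TLX-lesion lines, and 3 were opposite. Of all separated genes, 180 were higher in TAL1-lesion lines and 77 in TLX-lesion lines. The pairs included neighbors within the metallothionein, HLA and HOXB clusters.

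Some genes were missing or present in 1 TLX-lesion line alone. RB1, the retinoblastoma tumor suppressor, was 4.10 in ALL-SIL and 10.27 to 10.55 in the other 4 lines by the probe set used, while its second probe set was 7.99 in ALL-SIL and 6.87 to 8.02 in the others. CDKN2A, which encodes p16 and p14ARF, was 10.80 in HPB-ALL and at most 5.04 in the others, while 1 of its 3 probe sets was 4.11 in HPB-ALL and did not set that line apart. MSH6, a mismatch repair gene, was at the floor in HPB-ALL (4.0) and 8.59 to 10.18 elsewhere, and TFDP1, the partner of E2F factors, was 4.0 there and 9.74 to 10.83 elsewhere. PRDX2, a peroxiredoxin, was 5.17 in HPB-ALL and 10.68 to 11.84 in the others, although 1 of its 4 probe sets read 8.99 in HPB-ALL. CD28, a costimulatory receptor, differed between the nearly identical reference arrays, at 4.50 in P12-ICHIKAWA and 8.78 in TALL-1 by the probe set used, but its other probe sets read 7.02 and 7.35, and 4.97 and 5.77, in the same order.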
